A study of Mus musculus with 4 samples.

Results

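The TNF ligand and receptor superfamilies were followed in mouse long-term haematopoietic stem cells, the rare marrow cells that sustain blood formation. Members were the genes whose platform symbol starts with Tnfsf or Tnfrsf and a digit, together with Tnf, Lta and Ltb, apart from receptors set aside by the choice of members and not analysed here. This gave 32 of 23185 genes with a single symbol: 13 ligands, 18 receptors and Tnfsf13os, a non-coding transcript named for the strand opposite Tnfsf13. No expression filter entered the choice. Lineage-negative, c-Kit-positive, Sca-positive donor cells received 0, 0.02, 0.1 or 0.5 Gy of γ-irradiation and were transplanted into mice that had been lethally irradiated. After 6 months, Flk2-negative, CD48-negative, CD150-positive cells of the same lineage-negative, c-Kit-positive, Sca-positive phenotype were sorted from bone marrow. All 4 groups, the 0 Gy control included, therefore came from irradiated hosts. Each dose had 1 array. The labels give no strain, genotype or age and do not say whether mice were pooled, and the sort as described names no marker of donor origin.

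Ligands of this superfamily are mostly trimeric membrane proteins, many of which can be shed, and they bind receptors with cysteine-rich repeats. Receptors with a death domain can recruit caspases, and most others bind TRAF adaptors and activate NF-kB. TNF acts on stem cells and their surroundings during inflammation, lymphotoxins organise lymphoid tissue, and BAFF and APRIL keep B cells and plasma cells alive.

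Values are deposited log2 intensities, 1 per gene. With 1 array per dose there is no spread within a dose and no test, so each comparison below is between individual arrays and the number of arrays limits the precision. The median of all 25206 probe sets lay between 4.01 and 4.07 on the 4 arrays. The median of the gene means was 4.06, and 17 of 32 members had a mean at or above this level. Below it the size of a difference is uncertain. Many deposited values were identical between arrays: 16 of 32 members and 57.4% of all genes had at least 1 tie, and Tnfsf8 and Tnfrsf11a had the same value on all 4 arrays. Of the measured stem cell markers, 7 of 7 were at or above the median level on every array. All 7 were brightest at 0.02 Gy, with summed linear intensities of 2594, 3734, 2730 and 2644 in order of dose. Slamf1, which encodes CD150, spanned 1.49 on the log2 scale, Fgd5 1.54 and Procr 1.38, whereas Kit spanned 0.45. Of the genes for proteins the sort excluded, Flt3 (Flk2) was highest at 0.1 Gy, 0.98 above 0 Gy, and Cd48 was lowest at 0.02 Gy, with a difference of -1.06. Levels of different genes come from different probes and are not comparable. Sums over a list, and the share of a single gene in them, therefore also depend on the probes.

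The largest differences in the family were on the 0.1 Gy array. There Tnfrsf12a, the receptor for TWEAK, was 6.16-fold higher than at 0 Gy, and Tnf was 2.94-fold higher. Ltb, the membrane-anchored lymphotoxin subunit, was 7.92-fold lower and Tnfsf4, the OX40 ligand, 2.05-fold lower. At 0.5 Gy, Tnfsf13, which encodes APRIL, was 2.61-fold higher, while the TRAIL decoy receptor gene Tnfrsf22 was 2.64-fold lower and Tnfsf4 2.52-fold lower. At 0.02 Gy no member reached 2-fold.

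In numbers, 2 of 32 members were at least 2-fold higher at 0.1 Gy, against 1.13% of all genes, and 2 were lower, against 1.69%. At 0.5 Gy 1 member lay above that level and 2 below it, against 1.23% and 1.87% of all genes. At 0.02 Gy 0 members reached it in either direction, against 1.81% upwards and 1.10% downwards. A single gene is 3.12% of the members, so these shares move in large steps. On the log2 scale the median difference over the members was 0.17, 0.01 and 0.00 for the doses in rising order, and over all genes it was 0.00 each time. No member was 2-fold different in 1 direction at all 3 doses, against 0.216% of all genes for higher and 0.388% for lower. At the looser level of 1.5-fold, the 0.02 Gy array had 6 members above 0 Gy (Tnfrsf26, Tnfrsf13b, Tnfsf14, Tnfsf13, Tnfrsf12a and Tnfrsf4), against 4.59% of all genes, and 3 below it (Tnfrsf22, Tnfrsf14 and Ltb), against 4.27%. At that level 1 member was higher at all 3 doses (Tnfrsf12a), against 0.979% of all genes, and 1 was lower (Ltb), against 1.52%. The 3 comparisons share the 0 Gy array, so a value peculiar to that array enters each of them. Against the mean of the other 3 arrays, both genes turned at the outer doses: Tnfrsf12a had -0.47 at 0.02 Gy and -0.26 at 0.5 Gy, and Ltb 0.67 and 0.38. That mean includes the 0.1 Gy value, which in both genes lies farthest from the other arrays. The turn follows from this, so it cannot show whether the shift from 0 Gy holds. At 0.1 Gy both genes kept their direction, with 2.12 and -2.51.

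**Figure D1:**
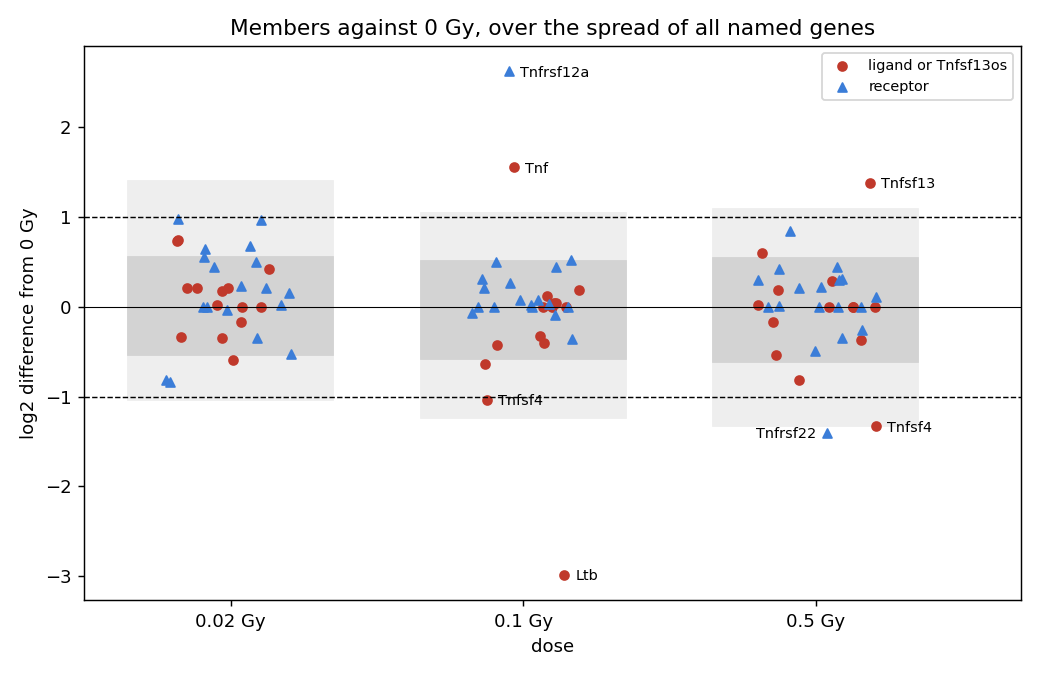
Log2 difference from the 0 Gy array (vertical axis) for the 32 members at each dose; circles are ligands and Tnfsf13os, triangles are receptors. Dark and light grey bands hold the central 90% and 98% of 23185 genes, dashed lines mark 2-fold, and horizontal scatter within a dose carries no meaning. Tnfrsf12a at 2.62 and Ltb at -2.99, both at 0.1 Gy, lie farthest from 0.

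Without a control, the highest and lowest of the 4 arrays differed at least 2-fold in 10 of 32 members, against 8.22% of all genes. Among genes with a mean at or above the median level, this held for 8 of 17 members, against 12.2%. For 2 members, Tnfrsf12a and Ltb, a lone array was separated by 2-fold or more from every other array, against 2.72% of all genes. In both it was the 0.1 Gy array.

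**Figure D2:**
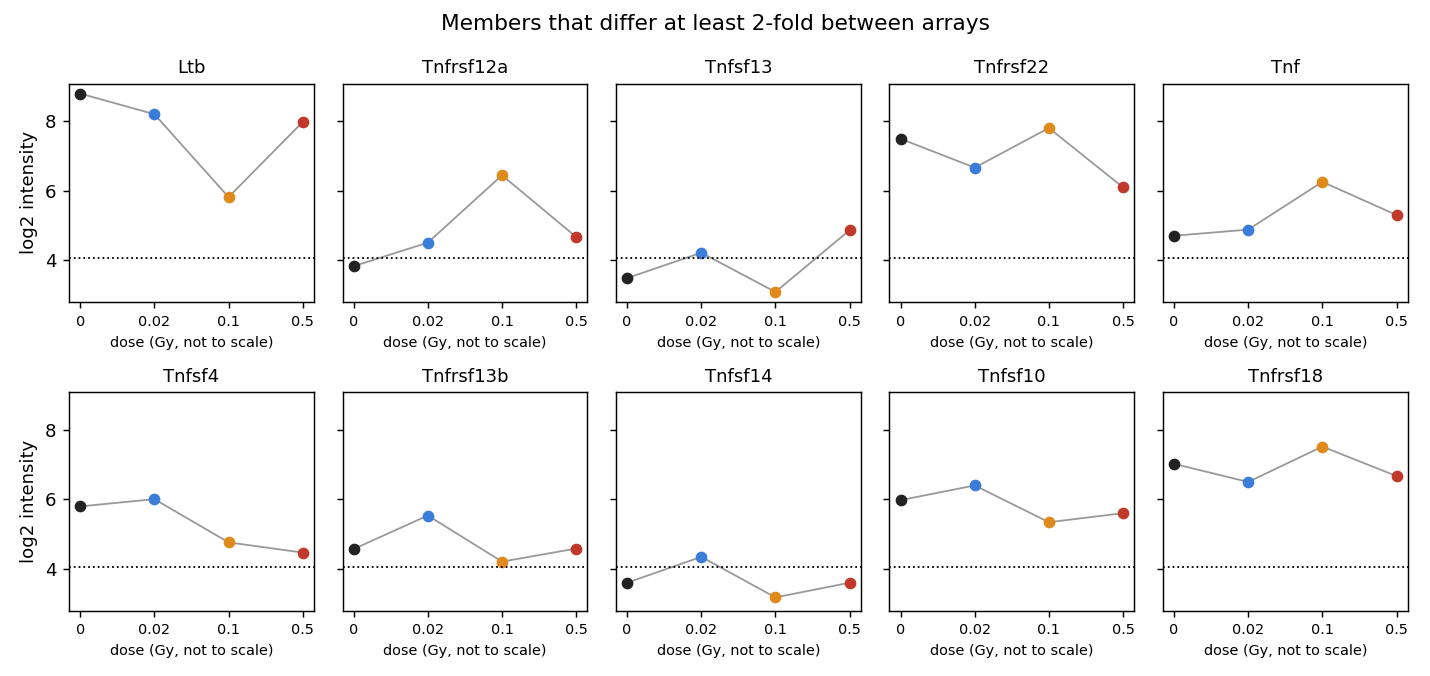
Log2 intensity (vertical axis) on the 4 arrays, 1 per dose, for the 10 members whose arrays differed at least 2-fold, from the widest range to the narrowest; the dotted line is the median of all gene means, 4.06, and doses are evenly spaced rather than to scale. Ltb is lowest and Tnfrsf12a and Tnf are highest at 0.1 Gy.

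Ltb, Tnf and Lta are neighbours in 1 cluster within the major histocompatibility complex. Ltb had log2 values of 8.80, 8.21, 5.82 and 7.98 on the arrays for 0, 0.02, 0.1 and 0.5 Gy. The 0.1 Gy array was thus the low one, by 2.17 from the nearest other array, and the 3 irradiated arrays all lay below 0 Gy. At 0.1 Gy its difference of -2.99 was matched or exceeded downwards by 36 of 23185 genes, Ltb included, or 0.155%. Tnf, the founding cytokine of the family, had 4.70, 4.88, 6.26 and 5.30 in that order. It was highest where Ltb was lowest, with a difference of 1.55 at 0.1 Gy that 0.367% of all genes reached. Lta, which encodes the secreted lymphotoxin, stayed between 3.55 and 3.67, below the median level on every array. Lymphotoxin beta acts through the receptor gene Ltbr, which had 7.82, 8.01, 7.64 and 7.17.

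Ltb is best known from lymphocytes, so markers of other blood cells are given beside it. Of 9 measured genes for monocytes, macrophages and dendritic cells, 3 lay 2-fold or more below 0 Gy on the 0.1 Gy array and 0 above, against 1.69% and 1.13% of all genes. Their summed linear intensity was 2437, 2094, 1024 and 1951 in order of dose, lowest on the array where Ltb was lowest. Cd74, H2-Aa and H2-Ab1, genes of class II antigen presentation, were the brightest of them on every array, so the sum mostly follows them. Cd74 alone made 22.9% to 40.3% of it, and without Cd74 the sums were 1454, 1275, 789 and 1351. The 3 lower genes were Cd74, H2-Aa and Cd68. Csf1r and Adgre1 each had the same low value on all 4 arrays, 3.11 and 3.22. At 0.1 Gy Itgam and Itgax differed from 0 Gy by 0.22 and 0.06, and Ccr2 and H2-Ab1 by -0.17 and -0.63. Over 7 B cell genes the sum was 255, 538, 199 and 169, and over 8 T and NK cell genes 596, 447, 773 and 1081. A single gene made most of each sum: Cd79b, of the B cell receptor, 64.6% to 75.1%, and Nkg7, of cytotoxic granules, 74.5% to 89.8%. Without them the sums were 63.4, 145, 70.4 and 58.4 for B cells and 118, 114, 114 and 110 for T and NK cells. Among B cell genes Cd79b ran from 6.79 to 8.62 and Cd79a from 3.30 to 6.61, both highest at 0.02 Gy, while Ms4a1 stayed between 2.23 and 2.32. Among T and NK cell genes Nkg7 ran from 8.38 to 9.92, while Cd3e stayed between 2.27 and 2.32. No gene is listed at 0. The part of such cells in the Ltb values was not tested. In RNA of sorted cells, fewer cells of a type and less RNA per cell cannot be told apart.

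Tnfrsf12a, also called Fn14, is a small receptor that many tissues induce after injury. Its values were 3.82, 4.50, 6.45 and 4.67 in order of dose. The 0.1 Gy array was the high one, by 1.78 from the next, and the 0 Gy value was below the median level. Counting Tnfrsf12a itself, 17 of 23185 genes, or 0.0733%, had a difference at 0.1 Gy as high as its 2.62. With all values below 4.06 raised to that level the difference was 2.39. Its ligand gene Tnfsf12 was not analysed here. On the same array 6 of 9 neutrophil genes lay 2-fold or more above 0 Gy and 0 below, against 1.13% and 1.69% of all genes. They were Mpo, S100a9, S100a8, Elane, Ctsg and Camp, while Prtn3, Ngp and Ltf differed by 0.44, 0.32 and 0.14. At 0.02 Gy 3 were higher and 1, S100a8, lower, against 1.81% and 1.10% of all genes. At 0.5 Gy 2 were higher and 0 lower, against 1.23% and 1.87%. The summed linear intensities over the 9 genes were 316, 678, 1191 and 606 in order of dose. Over 8 endothelial and stromal genes, cells in which Fn14 is also known, the sums were 315, 201, 232 and 201. Emcn made 42.7% to 57.5% of them, and without it they were 180, 91.0, 98.5 and 95.9. Sox18 was the single gene of this list past 2-fold, with 6.35, 3.91, 4.38 and 4.38. It was lower at all 3 doses, against 0.388% of all genes. The part of granulocyte or stromal transcripts in the Tnf and Tnfrsf12a values was not tested.

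The bases before the transcription start are shown for the 3 genes of the cluster and for Tnfrsf12a, because neighbours in the cluster differed in opposite directions on the 0.1 Gy array. They are 250 bases each from RefSeq in build GRCm38.p6, 5′ to 3′ on the gene's strand. Capitals mark the kappa-B consensus bound by NF-kB in Ltb and the TATA box letters TATAAA in Tnf and Lta.
Ltb (chr17:35194257-35194506, plus strand): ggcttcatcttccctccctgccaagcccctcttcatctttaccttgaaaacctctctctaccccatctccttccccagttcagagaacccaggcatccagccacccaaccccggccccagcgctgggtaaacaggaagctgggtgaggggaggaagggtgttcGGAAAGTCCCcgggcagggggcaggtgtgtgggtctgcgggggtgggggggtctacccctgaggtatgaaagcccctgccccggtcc
Tnf (chr17:35202008-35202257, minus strand): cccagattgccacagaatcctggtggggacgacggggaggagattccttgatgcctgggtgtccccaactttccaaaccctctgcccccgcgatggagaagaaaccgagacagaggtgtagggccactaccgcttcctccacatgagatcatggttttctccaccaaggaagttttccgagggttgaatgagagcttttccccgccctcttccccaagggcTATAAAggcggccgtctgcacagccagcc
Lta (chr17:35205352-35205601, minus strand): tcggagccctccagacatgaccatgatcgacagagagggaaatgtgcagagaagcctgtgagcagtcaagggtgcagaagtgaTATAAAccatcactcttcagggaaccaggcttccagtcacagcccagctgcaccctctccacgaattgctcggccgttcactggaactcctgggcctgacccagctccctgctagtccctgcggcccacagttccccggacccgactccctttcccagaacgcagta
Tnfrsf12a (chr17:23677450-23677699, minus strand): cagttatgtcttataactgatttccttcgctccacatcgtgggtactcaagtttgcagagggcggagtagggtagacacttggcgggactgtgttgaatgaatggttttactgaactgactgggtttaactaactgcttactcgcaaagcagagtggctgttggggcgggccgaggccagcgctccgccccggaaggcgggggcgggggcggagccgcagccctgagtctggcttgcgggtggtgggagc
All were searched on both strands. Ltb held 1 match to the kappa-B consensus, GGAAAGTCCC, from 87 to 78 bases before the start and read on the opposite strand. Such a match was present in 7.25% of 32851 windows of this length and in 4 of the 30 windows of the 26 members that have one. TATAAA was found from 29 to 24 bases before the start in Tnf and from 167 to 162 bases before it in Lta, and 12.4% of all windows held it. The AP-1 letters TGANTCA were not in these 4 windows and occurred in 6.75% of all windows and in 5 member windows. No match in these windows overlapped another.

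Co-stimulatory ligands and their receptors, best studied on T cells and antigen-presenting cells, followed. Tnfsf4 had 5.80, 6.01, 4.76 and 4.47 at 0, 0.02, 0.1 and 0.5 Gy. The arrays of the 2 higher doses lay below both others, with differences from 0 Gy of -1.04 and -1.33. After quantile normalization the first of these was -0.98, under 2-fold, and against the mean of the other 3 arrays it was -0.66. That mean includes the low 0.5 Gy value. Its receptor gene Tnfrsf4, OX40, had 3.71, 4.35, 4.23 and 4.13, lowest at 0 Gy, where it was below the median level.

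Tnfrsf18, which encodes GITR, had 7.03, 6.51, 7.53 and 6.67. The 0.1 Gy array was 2.03-fold above the 0.02 Gy array, with 0 Gy between them. The GITR ligand gene Tnfsf18 was low throughout, from 2.03 to 2.24. Tnfrsf14, or HVEM, a receptor for LIGHT, had 5.92, 5.10, 5.95 and 6.03, so that the 0.02 Gy array alone was low, with a difference of -0.82 from 0 Gy. Tnfsf14, which encodes LIGHT, had 3.60, 4.35, 3.18 and 3.60, above the median level only at 0.02 Gy. Tnfsf9, the ligand of 4-1BB, had 4.35 at 0.02 Gy and exactly 4.69 on each of the other 3 arrays.

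**Figure D3:**
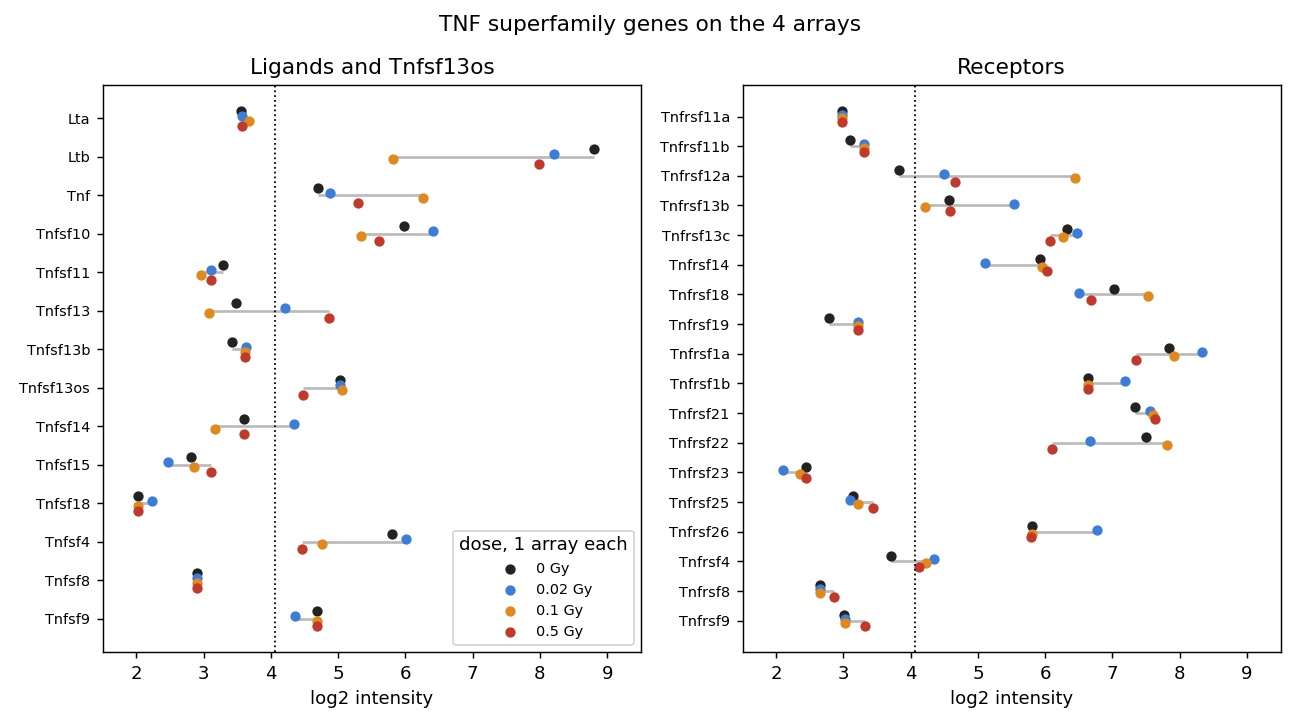
Log2 intensity (horizontal axis) of each member on the 4 arrays, 1 point per dose, for ligands with Tnfsf13os (left) and receptors (right); grey lines join the lowest and highest array and the dotted line is the median of all gene means, 4.06. Points of a gene are offset vertically for legibility, and positions of different genes are not comparable because their probes differ. Ltb, Tnfrsf12a and Tnfrsf22 show wide spreads, whereas Tnfsf8 and Tnfrsf11a have coincident points.

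The BAFF and APRIL branch serves B cells and plasma cells. Tnfsf13, or APRIL, had 3.48, 4.21, 3.08 and 4.86 at 0, 0.02, 0.1 and 0.5 Gy. The values at 0 and 0.1 Gy were below the median level, and with low values raised to it the difference at 0.5 Gy was 0.80, under 2-fold, in place of 1.38. At 0.1 Gy Tnfsf13 was 2-fold lower by the mean of the other 3 arrays, at -1.10, and not by 0 Gy, at -0.40. The overlapping Tnfsf13os had 5.02, 5.02, 5.06 and 4.48, lowest on the array where Tnfsf13 was highest. Tnfsf13b, which encodes BAFF, stayed between 3.42 and 3.63.

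Tnfrsf13b encodes TACI, a receptor for both BAFF and APRIL. Its values were 4.57, 5.54, 4.21 and 4.58, with the 0.02 Gy array high and 2.51-fold above the 0.1 Gy array. From 0 Gy it differed by 0.97, just under 2-fold, and against the mean of the other 3 arrays by 1.08. Plasma cell genes were also brightest on the 0.02 Gy array, with summed linear intensities of 1355, 2480, 720 and 564 over 6 genes, of which 2 were at least 2-fold higher than at 0 Gy, against 1.81% of all genes. B cell and stem cell markers, given above, had their highest sums there as well. The part of these cells' transcripts in the TACI values was not tested. Tnfrsf13c, the BAFF receptor gene, had 6.33, 6.48, 6.26 and 6.07 within 0.41 of each other.

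TRAIL, encoded by Tnfsf10, triggers apoptosis through death receptors and is also bound by decoys that do not signal death. Tnfsf10 had 5.98, 6.40, 5.34 and 5.61, with the 0.02 Gy array 2.09-fold above the 0.1 Gy array and 0 Gy between them. The decoy receptor gene Tnfrsf22 had 7.50, 6.67, 7.81 and 6.10. It was lowest at 0.5 Gy, with a difference from 0 Gy of -1.40. At 0.1 Gy it was 0.31 above 0 Gy but 1.06 above the mean of the other 3 arrays, and the 0.1 Gy array was 3.28-fold above the 0.5 Gy array. Tnfrsf26 lies beside Tnfrsf22 in the genome and had 5.80, 6.78, 5.80 and 5.79, high at 0.02 Gy by 0.98. Tnfrsf23, the third gene of this cluster, lay between 2.10 and 2.45. These are related genes, and whether their probe sets share probes was not tested.

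The main TNF receptors, TNFR1 and TNFR2, spanned less over the 4 arrays than their ligand. At 0.02 Gy alone, Tnfrsf1a and Tnfrsf1b lay 0.49 and 0.55 above 0 Gy, and Tnf 0.18. Tnfrsf1a, the death domain receptor TNFR1 of most cell types, had 7.84, 8.34, 7.92 and 7.35, highest at 0.02 Gy and lowest at 0.5 Gy, a spread of 1.99-fold. Tnfrsf1b, or TNFR2, had 7.19 at 0.02 Gy and 6.64 on the 3 other arrays, which shared exactly that value. Tnfrsf21, the death domain receptor DR6, had 7.33, 7.56, 7.60 and 7.63, a spread of 0.30. The ligand Tnf spanned 1.55 over the same arrays.

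The remaining 14 members had means below the median level and no 2-fold difference from 0 Gy. They comprise 7 ligands, of which Lta, Tnfsf13b, Tnfsf14 and Tnfsf18 are described above, and 7 receptors. The other ligands were Tnfsf8, the CD30 ligand, Tnfsf11, which encodes RANKL, and Tnfsf15, or TL1A. The receptors were Tnfrsf8, Tnfrsf9, Tnfrsf11a, Tnfrsf11b, Tnfrsf19, Tnfrsf23 and Tnfrsf25, which include RANK, the RANKL decoy osteoprotegerin and DR3. Their values ran from 2.03 to 4.35, and those of the 7 receptors from 2.10 to 3.44. Differences from 0 Gy ran from -0.42 to 0.75, both extremes in Tnfsf14, and apart from Tnfsf14 none spanned more than the 0.64 of Tnfsf15. RANKL and RANK are known for bone-resorbing osteoclasts, and at this level the size of any difference in them is uncertain.

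Between irradiated arrays, 4 members were past 2-fold upwards and 6 downwards from 0.02 to 0.1 Gy, against 1.01% and 2.21% of all genes. The higher ones were Tnf, Tnfrsf12a, Tnfrsf18 and Tnfrsf22. The lower ones were Ltb, Tnfsf4, Tnfsf10, Tnfsf13, Tnfsf14 and Tnfrsf13b, of which 5 are ligands. Between 0.5 and 0.1 Gy, Ltb and Tnfsf13 were higher and Tnfrsf12a and Tnfrsf22 lower, against 1.10% and 1.27% of all genes. Between 0.5 and 0.02 Gy, 1 member, Tnfsf4, was 2.91-fold lower and 0 were higher, against 2.23% and 1.12%.

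Family members with other names were looked at as a separate list of 12 genes. On the 0.1 Gy array 1 of them was 2-fold or more above 0 Gy, against 1.13% of all genes. It was Edar, the ectodysplasin receptor gene, which was named after its values were seen and had 3.46, 3.65, 4.47 and 3.78. Its mean and its 0 Gy value were below the median level, and 0 genes of the list were past 2-fold with the filter on low values, with low values raised, or against the mean of the other 3 arrays. No other was past that level at any dose, against 1.10% to 1.87% of all genes for a dose and direction. The list medians were -0.03, 0.07 and 0.00. Cd27, a co-stimulatory receptor, had 8.63, 8.75, 8.77 and 9.24, highest at 0.5 Gy, where Ltbr was lowest. Fas, the death receptor, lay low at 2.79 on 3 arrays and 3.11 at 0.02 Gy.

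Downstream of the receptors, the median difference over 25 adaptor and proximal signalling genes was within 0.01 of 0 on each irradiated array. The list held 27 genes, of which Traf3 and Ripk1 had no value under a single symbol. Past 2-fold, the 0.02 Gy array had 1 of them above 0 Gy (Tnfaip3), the 0.1 Gy array 1 above (Tnfaip3) and 1 below (Birc3), and the 0.5 Gy array 1 below (Tab1). The shares of all genes were 1.81% higher at 0.02 Gy, 1.13% higher and 1.69% lower at 0.1 Gy, and 1.87% lower at 0.5 Gy. The count above at 0.02 Gy was 0 after median centring, and the count below at 0.1 Gy was 0 after quantile normalization. Both, with the count above at 0.1 Gy, were 0 against the mean of the other 3 arrays. That mean includes the other irradiated arrays, on all of which Tnfaip3 lay above 0 Gy and Birc3 below it. The counts of 0 against it therefore cannot show whether these differences from 0 Gy hold. Tnfaip3 encodes A20, a deubiquitinase that limits TNF signalling to NF-kB, and had 6.16, 7.21, 7.57 and 6.96. It was lowest at 0 Gy and highest at 0.1 Gy, as were Tnf and Tnfrsf12a. Birc3, which encodes the inhibitor of apoptosis cIAP2, had 7.68, 7.39, 6.66 and 7.25, lowest at 0.1 Gy. Tab1, a partner of the kinase TAK1, had 6.03, 5.70, 5.70 and 4.37, lowest at 0.5 Gy. Cflar, which encodes the caspase inhibitor FLIP, had 6.02, 6.73, 5.49 and 5.82.

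Among 11 measured of 13 listed genes for NF-kB kinases, subunits and inhibitors, the medians were 0.15, 0.00 and 0.00. Chuk and Nfkb1 had no value under a single symbol. Bcl3, a nuclear partner of NF-kB, was the single gene past 2-fold, with 6.92, 8.69, 6.92 and 6.13. The 0.02 Gy array was the high one, where 1.81% of all genes lay 2-fold or more above 0 Gy. Against the mean of the other 3 arrays Bcl3 itself was also 2-fold lower at 0.5 Gy, where that mean includes its high 0.02 Gy value. Rela, the main activating subunit, had 8.94, 9.09, 9.23 and 9.15, and Nfkbia, its inhibitor, 7.88, 8.02, 7.64 and 7.88.

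Of 22 response genes of TNF and NF-kB, 3 on the 0.02 Gy array, 2 on the 0.1 Gy array and 1 on the 0.5 Gy array lay 2-fold or more above 0 Gy, and 0 lay as far below. The shares of all genes above were 1.81%, 1.13% and 1.23%. Against the mean of the other 3 arrays the counts at 0.1 and 0.5 Gy were 0, with low values raised the count at 0.1 Gy was 1, and after quantile normalization the count at 0.5 Gy was 2. Their medians were 0.13, 0.03 and 0.05. The chemokine gene Cxcl2 had 3.67, 5.52, 5.00 and 4.63, and Ccl4, another chemokine gene, 6.85, 7.65, 8.36 and 8.40. In both the 0 Gy array was lowest, and the mean of the other 3 arrays includes irradiated arrays. The counts of 0 against that mean therefore cannot show whether their differences from 0 Gy hold. Ptgs2, which encodes cyclooxygenase-2, had 6.41, 7.46, 6.56 and 6.90, and Ier3, an early response gene, 9.18, 10.22, 9.20 and 9.25, both highest at 0.02 Gy. Icam1, an adhesion molecule gene, had 5.24, 5.61, 4.86 and 5.06, lowest at 0.1 Gy.

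The 8 genes for shedding and processing had medians of -0.01, 0.00 and -0.06. Adam17, the protease that releases soluble TNF, had 7.69, 7.31, 7.08 and 7.31. Timp3, which encodes an inhibitor of ADAM17, had 9.30, 6.55, 9.16 and 8.10. It was the single gene of this list past 2-fold, with differences of -2.75 at 0.02 Gy and -1.20 at 0.5 Gy. The shares of all genes at least 2-fold lower at these doses were 1.10% and 1.87%. Against the mean of the other 3 arrays 0 genes of the list were as low at 0.5 Gy, and Timp3 itself was past 2-fold upwards at 0.1 Gy. At both doses that mean includes the low 0.02 Gy value of Timp3. Adam10 stayed between 8.71 and 8.98.

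**Figure D4:**
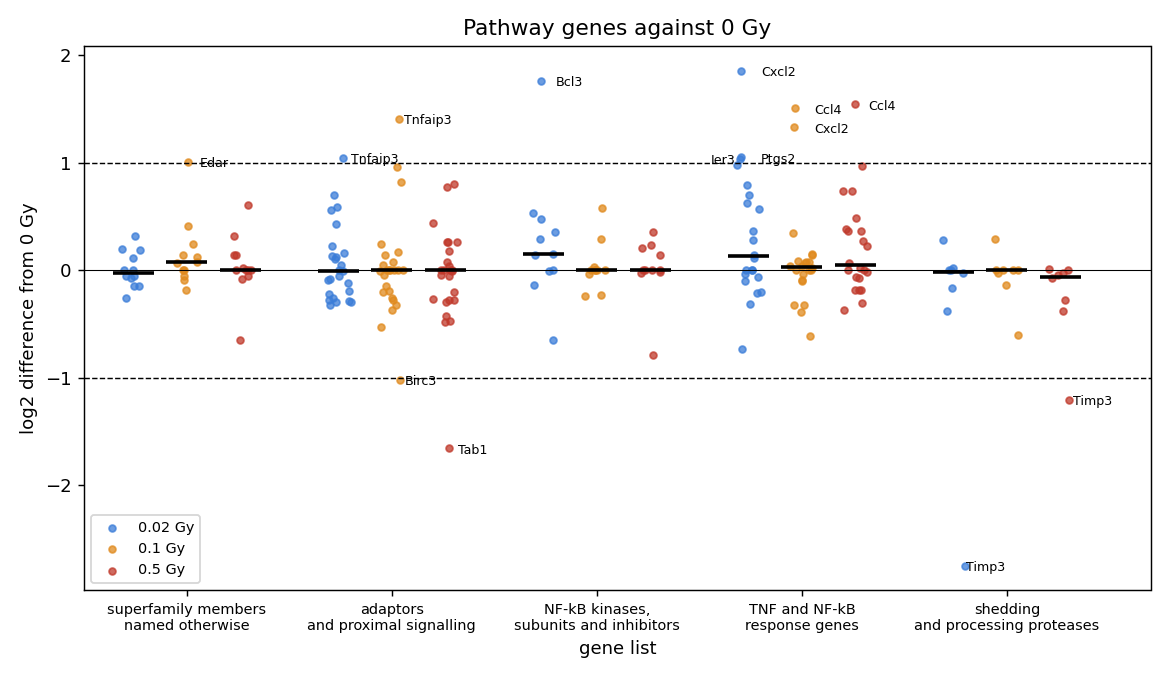
Log2 difference from the 0 Gy array (vertical axis) for genes of the 5 pathway lists; each point is a gene, colours are doses, black bars are list medians and dashed lines mark 2-fold. Genes past 2-fold are named, and the medians lie between -0.06 and 0.15.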

How the data were processed

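Total RNA was converted to biotinylated cDNA for Affymetrix whole-transcript arrays, per the labels' protocols. The deposited values are log2 intensities, 1 per Entrez gene. No source states the log base, and 2 was taken because values span 1.22 to 13.0. Partek is named in the submitters' processing notes, without a role. For background correction, normalization and build, nothing is given in the sources read. Values were used as deposited. Of 25206 probe sets, 2021 without a single symbol (none, or several) were left out.

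Log2 differences between arrays were called at 2-fold or more, over all genes with a single symbol and no filter on level, with Python 3.11.15. The calling was checked on copies of the 0 Gy array with known shifts added, which tests the calculation and not how often a call is false. Members with a mean at or above the median of gene means, or 2-fold from 0 Gy at any dose, are given 1 by 1, and other lists by up to 4 genes per dose. The members and lists were chosen with earlier results of these data known. Alternatives used limma 3.58.1 in R 4.3.3 for normalization. All 32 members matched RefSeq gene IDs, and 26 had a promoter window. The AP-1 and TATA letters were chosen after values were seen. Marker sums add linear intensities.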

Additional observations from a re-analysis of the deposited data

How the results depend on the processing

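Median centring and cyclic loess left each member count within 1.5 times its value and moved no median by 0.1, and no member difference called at 2-fold changed sign under any alternative run. With quantile normalization the members lower at 0.1 Gy numbered 1 in place of 2, since Tnfsf4 was at -0.98, and the range of Tnfsf10 was 0.98. With a filter on low values, or with low values raised to the median level, 0 members were higher at 0.5 Gy, since Tnfsf13 lies low. With low values raised, the median at 0.02 Gy was 0.00. At 1.5-fold, 6 members were higher and 3 lower at 0.02 Gy, 3 higher at 0.5 Gy, and 1 higher and 1 lower at all 3 doses. At 3-fold, 1 member was higher and 1 lower at 0.1 Gy, 0 higher and 0 lower at 0.5 Gy, and 4 had a range past the threshold. The shares of all genes at 3-fold, and at 1.5-fold for 0.5 Gy alone, were not computed. These counts therefore do not show whether the members differ from all genes. Against the mean of the other 3 arrays, 1 member was higher at 0.02 Gy (Tnfrsf13b) and the median there was 0.057. At 0.1 Gy 3 were then higher and 2 lower, with Tnfrsf22 at 1.06 and Tnfsf13 at -1.10 past 2-fold and Tnfsf4 at -0.66 under it. Differences under 2-fold could turn: Tnfrsf12a at 0.02 and 0.5 Gy was -0.47 and -0.26, and Ltb 0.67 and 0.38. For both genes that mean includes the outlying 0.1 Gy array. For every gene it includes the other irradiated arrays, so a difference from 0 Gy shared by the doses shrinks against it. Of 240 recomputed counts over the pathway lists, 35 moved by more than 1.5 times, 20 of them under the other thresholds. No paired analysis was possible because each dose has 1 array. Leaving out an array removes its dose. Of the 32 members, 17 reach the median level, and differences below it are least certain.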
